A study of Mus musculus with 12 samples.

Results

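The genes described here make, carry, break down and sense prostaglandin E2. They are 10 of the 54232 genes counted in cultured mouse mammary tumour cells, and they were chosen by name around Ptgs2, because Ptgs2 ranked among the most abundant mRNAs of one group of libraries, AXL WT cells in hypoxia. The members are Pla2g4a, Ptgs1, Ptgs2, Ptges, Ptges2, Ptges3, Slco2a1, Hpgd, Ptger2 and Ptger4. The level of Ptgs2 in AXL WT hypoxia is therefore a description and carries no test, and the same holds for every contrast of Ptgs2 that uses those libraries.

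Prostaglandin synthesis starts when a phospholipase A2 frees arachidonic acid from membranes. A cyclooxygenase, Ptgs1 (COX-1) or Ptgs2 (COX-2), turns it into prostaglandin H2, and a terminal synthase turns that into prostaglandin E2. Ptgs1 is made at a steady level in many tissues, whereas Ptgs2 is induced by growth factors, inflammatory signals and low oxygen and is often raised in mammary tumours. The transporter encoded by Slco2a1 takes prostaglandins back into cells, the dehydrogenase encoded by Hpgd inactivates them, and the receptors EP2 and EP4 (Ptger2 and Ptger4) raise cyclic AMP when they bind prostaglandin E2.

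The cells were MMTV-NIC breast cancer cells, all of which carry a transgene that places activated Neu (ErbB2) and Cre under the MMTV promoter, active mainly in mammary epithelium. Total RNA was sequenced from 12 libraries in 4 groups of 3: AXL KO cells in hypoxia (1% O2), AXL WT cells in hypoxia, AXL KO cells in normoxia (21% O2) and AXL WT cells in normoxia. AXL is a receptor tyrosine kinase. The time in hypoxia, the number of knockout clones and the origin of the replicates are not given in the sources used here, so p-values rest on a spread between libraries that may be technical.

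The libraries held between 45297267 and 58775422 counts in genes. Axl was at 1.72 to 2.35 CPM (counts scaled to a fixed library size) in AXL KO hypoxia, against 455 to 592 CPM in AXL WT hypoxia. It was at 2.93 to 3.47 CPM in AXL KO normoxia, against 892 to 1000 CPM in AXL WT normoxia. The targeted gene thus followed the sample titles, which set the groups, while the genotype tag contradicts the title in 6 samples. The epithelial keratin Krt8 stood at 323 to 875 CPM over the 12 libraries, while Krt19, another keratin of luminal epithelium, did not exceed 0.305 CPM in any. The AXL WT hypoxia libraries stood apart in spread: their common coefficient of biological variation stood at 0.402, against 0.0740 in AXL KO hypoxia, 0.0895 in AXL KO normoxia and 0.0585 in AXL WT normoxia. Replicates 1, 2 and 3 of that group held 2407, 131 and 359.5 CPM of Erbb2. These were counted at the mouse gene, and the part of the transgene in them was not told apart. In bulk RNA, fewer cells with a transcript and less of it per cell cannot be told apart.

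The promoter of Ptgs2 is shown beside those of Ptges2 and Slco2a1, the other members whose windows hold the letters ACGTG. That of Ptgs1, the other cyclooxygenase gene, which was also higher in hypoxia, is shown too. RefSeq windows (GRCm38.p6) span 250 bases before to 50 bases after each start site, and all 10 members matched, with 11 windows. Capitals mark the letters ACGTG or CGTCA, read on either strand, and each sequence is printed 5′ to 3′ along its gene. ACGTG is a form of the core bound by hypoxia-inducible factors, and other forms were not searched. CGTCA is the half-site of cyclic AMP response elements.
Ptgs2, chr1:150099781-150100080, plus strand: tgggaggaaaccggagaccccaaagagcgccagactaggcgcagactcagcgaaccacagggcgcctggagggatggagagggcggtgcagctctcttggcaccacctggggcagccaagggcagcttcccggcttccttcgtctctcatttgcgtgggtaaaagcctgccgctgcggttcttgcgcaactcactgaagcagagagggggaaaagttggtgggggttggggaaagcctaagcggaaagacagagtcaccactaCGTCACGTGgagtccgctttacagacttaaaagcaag
Ptges2, chr2:32395640-32395939, plus strand: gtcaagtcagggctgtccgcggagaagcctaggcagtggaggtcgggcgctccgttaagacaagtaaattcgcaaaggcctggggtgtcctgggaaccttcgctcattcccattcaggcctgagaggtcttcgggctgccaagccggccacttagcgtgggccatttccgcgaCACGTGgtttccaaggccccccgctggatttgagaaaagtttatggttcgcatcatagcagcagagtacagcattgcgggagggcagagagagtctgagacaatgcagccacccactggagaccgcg
Slco2a1, chr9:103008237-103008536, plus strand: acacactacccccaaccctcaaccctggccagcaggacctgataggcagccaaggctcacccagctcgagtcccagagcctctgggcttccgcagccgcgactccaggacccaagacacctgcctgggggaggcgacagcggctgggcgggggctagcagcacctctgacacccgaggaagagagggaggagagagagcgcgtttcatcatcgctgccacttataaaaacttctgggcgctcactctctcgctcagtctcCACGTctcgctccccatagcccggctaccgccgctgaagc
Ptgs1, chr2:36230176-36230475, plus strand: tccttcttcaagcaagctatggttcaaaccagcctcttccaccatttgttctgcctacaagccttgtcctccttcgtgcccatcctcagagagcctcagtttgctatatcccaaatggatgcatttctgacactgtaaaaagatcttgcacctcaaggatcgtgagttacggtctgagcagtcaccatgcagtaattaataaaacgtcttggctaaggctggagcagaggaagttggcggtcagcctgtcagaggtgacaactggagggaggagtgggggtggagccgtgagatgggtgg

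In the Ptgs2 window both motifs overlap in 1 short stretch that starts at position 14, with the start site as position 1. There CGTCA runs into CACGTG, a palindrome that holds ACGTG on both strands. The Ptges2 window holds the same palindrome 77 bases before its start, and the Slco2a1 window holds ACGTG once, at position 11 on the same count. The RefSeq start of Slco2a1 lies inside the gene as counted, whose deposited coordinates begin at 102988712. The Ptgs1 window holds neither motif. Of the 32851 windows in the table, 19.6% hold ACGTG and 20.8% hold CGTCA, so either motif alone is common. ACGTG occurred in windows of 3 members, of which Ptgs2 was higher and Ptges2 and Slco2a1 were lower in hypoxia, and Ptgs1, without it, was higher. CGTCA occurred in the windows of Ptgs2 and Ptges3. A match is a description of letters and not of binding.

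Ptgs2 (ENSMUSG00000032487, chromosome 1, 150100031 to 150108227, GRCm38) was counted 7822, 7753 and 9016 times in AXL KO hypoxia, against 440180, 1127356 and 889254 times in AXL WT hypoxia. In normoxia the counts were 4144, 2908 and 2736 in AXL KO cells, against 9440, 7522 and 11110 in AXL WT cells. Only the AXL WT hypoxia libraries lay far from the rest, and no library of that group overlapped any other group. After TMM scaling the levels were 187 ± 12.6 CPM in AXL KO hypoxia, 18205 ± 8353 CPM in AXL WT hypoxia, 57.2 ± 14.6 CPM in AXL KO normoxia and 167 ± 27.0 CPM in AXL WT normoxia (SD, n = 3 each).

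Ordered by level, AXL WT hypoxia stood first, then AXL KO hypoxia, AXL WT normoxia and AXL KO normoxia. The middle neighbours in this order overlapped, with 174 to 198 CPM in AXL KO hypoxia and 140 to 194 CPM in AXL WT normoxia, while AXL KO normoxia, at 47.4 to 74.0 CPM, lay below both. AXL KO cells in 1% oxygen thus held about as much Ptgs2 mRNA as AXL WT cells in 21% oxygen, although no test of that pair was made.

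**Figure D1:**
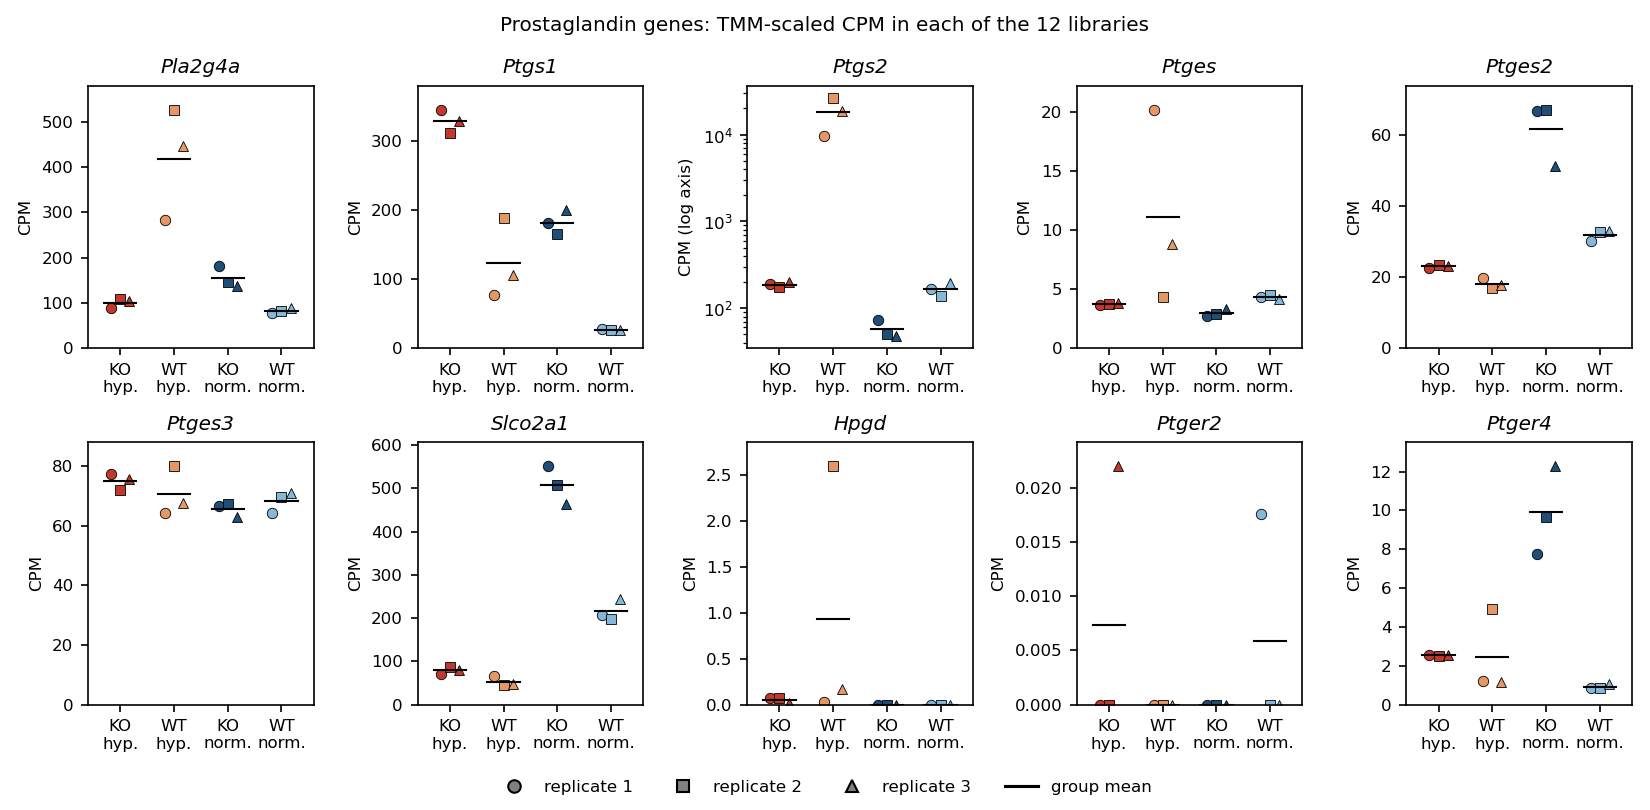
TMM-scaled CPM of the 10 prostaglandin genes in each of the 12 libraries, with a panel per gene; points are libraries (circle, square and triangle for replicates 1, 2 and 3), bars are group means of 3 libraries, and the Ptgs2 axis is logarithmic. Ptgs2 lies at 9721 to 26421 CPM in AXL WT hypoxia and at most 198 CPM in every other group, and Ptgs1 is highest in AXL KO hypoxia. Ptger2 lies at or near 0, and so does Hpgd except in AXL WT hypoxia replicate 2, at 2.60 CPM.

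In AXL WT hypoxia, Ptgs2 took 0.928%, 2.42% and 1.92% of all gene counts in replicates 1, 2 and 3. It was the most counted gene in replicates 2 and 3 and ranked 2 in replicate 1, where its rank per length was 7. Its share was 0.0152% to 0.0172% in AXL KO hypoxia, where it ranked between 1265 and 1459 by counts. The group means differed by a log2 fold change of -6.60 for AXL KO against AXL WT in hypoxia, 97.2-fold lower, and by 6.77 for hypoxia against normoxia in AXL WT, 109-fold higher; both are descriptions. With replicates 2 and 3 of AXL WT hypoxia left out, these values were -5.71 and 5.88, so the remaining library alone still lay far from both other groups.

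The 2 contrasts of Ptgs2 that do not use AXL WT hypoxia were tested with edgeR's quasi-likelihood test, with Benjamini-Hochberg adjustment over the 16767 genes tested. In AXL KO cells, Ptgs2 rose in hypoxia by 1.71 ± 0.15 on the log2 scale (SE), 3.27-fold (adjusted p = 2.95e-06), and all 3 hypoxia libraries lay above all 3 normoxia libraries. In normoxia, Ptgs2 fell by 1.54 ± 0.19 on the log2 scale in AXL KO cells against AXL WT cells (adjusted p = 0.000185), again with no overlap. Both calls held under all 14 alternatives run on each, with the highest adjusted p at 0.000469 for the oxygen contrast and 0.00895 for the genotype contrast. Genes called were common in both contrasts, 72.6% of those tested for hypoxia against normoxia in AXL KO and 76.9% for AXL KO against AXL WT in normoxia.

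Ptgs1 (ENSMUSG00000047250, chromosome 2, 36230426 to 36252272), the constitutive cyclooxygenase, ran the other way between genotypes. It was at 346, 312 and 330 CPM in AXL KO hypoxia, against 76.5, 189 and 106 CPM in AXL WT hypoxia. In normoxia it was at 181, 165 and 201 CPM in AXL KO cells, against 27.5, 26.8 and 26.4 CPM in AXL WT cells. All AXL KO libraries lay above all AXL WT libraries at the same oxygen level. Ptgs1 was higher in AXL KO by 1.41 ± 0.31 on the log2 scale in hypoxia (edgeR, adjusted p = 0.00965), where 48.6% of all genes tested were called. The difference was 2.76 ± 0.08 in normoxia (adjusted p = 4.24e-13).

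Hypoxia raised Ptgs1 in both genotypes, by 0.85 ± 0.08 on the log2 scale in AXL KO (edgeR, adjusted p = 4.44e-07) and by 2.20 ± 0.32 in AXL WT (adjusted p = 0.00189). Of all genes tested, 46.3% were called for hypoxia against normoxia in AXL WT. The interaction, the log2 response to hypoxia in AXL KO minus that in AXL WT, was -1.35 ± 0.34 (adjusted p = 0.0126), so the rise was smaller in AXL KO. For the interaction 28.8% of all genes tested were called.

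Set beside each other per length, the balance of the cyclooxygenases differed between genotypes. In TPM, counts scaled by gene length and library, Ptgs2 made up 31.8% to 33.8% of the sum of Ptgs1 and Ptgs2 in AXL KO hypoxia, against 99.1% to 99.3% in AXL WT hypoxia. In normoxia it made up 25.8%, 20.5% and 16.7% in AXL KO cells, against 83.7%, 81.6% and 86.2% in AXL WT cells. In normoxia Ptgs1 was thus the larger transcript pool in all AXL KO libraries and Ptgs2 in all AXL WT libraries. In hypoxia the order was the same. That part is a description, because the Ptgs2 level of AXL WT hypoxia led to the choice of these genes. The mean share in normoxia differed by -62.8 percentage points, AXL KO minus AXL WT (21.0% ± 4.54 against 83.8% ± 2.30, SD, n = 3 each), with p = 0.1 in a two-sided exact permutation test, the smallest p that 3 against 3 allows. Within AXL KO, the share was 32.5% ± 1.09 in hypoxia, against 21.0% ± 4.54 in normoxia (exact permutation p = 0.1, n = 3 each).

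**Figure D2:**
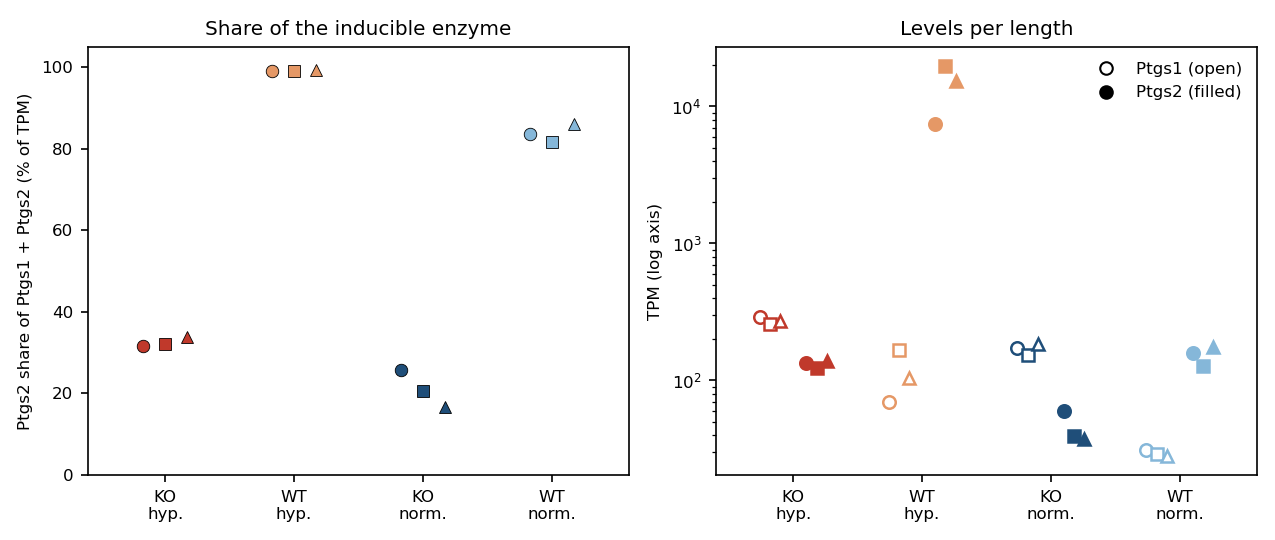
Left, Ptgs2 as a percentage of the summed TPM of Ptgs1 and Ptgs2 in each library; right, TPM of Ptgs1 (open) and Ptgs2 (filled) on a logarithmic axis; circles, squares and triangles are replicates 1, 2 and 3. AXL KO libraries lie between 16.7% and 33.8% and AXL WT libraries between 81.6% and 99.3%.

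The summed TPM of both enzymes was 382 to 423 in AXL KO hypoxia, against 7550 to 19708 in AXL WT hypoxia. In normoxia the sum was 191 to 232 in AXL KO, against 157 to 204 in AXL WT, and these ranges overlapped.

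Pla2g4a (ENSMUSG00000056220, chromosome 1, 149829618 to 149961290) encodes cytosolic phospholipase A2, which supplies arachidonic acid to both cyclooxygenases. It was at 89.4, 109 and 103 CPM in AXL KO hypoxia, against 283, 526 and 446 CPM in AXL WT hypoxia. In normoxia it was at 182, 146 and 138 CPM in AXL KO cells, against 77.6, 81.7 and 88.6 CPM in AXL WT cells. The genotypes changed order between the oxygen levels, with no overlap at either. Against AXL WT, Pla2g4a fell by 2.05 ± 0.24 on the log2 scale in AXL KO hypoxia (edgeR, adjusted p = 0.000692) and rose by 0.91 ± 0.10 in AXL KO normoxia (adjusted p = 3.17e-06).

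Hypoxia moved Pla2g4a in opposite directions in the genotypes. It fell by 0.62 ± 0.11 on the log2 scale in AXL KO (edgeR, adjusted p = 0.0002) and rose by 2.34 ± 0.23 in AXL WT (adjusted p = 0.000451). The interaction was -2.96 ± 0.28 (adjusted p = 2.81e-05), and it was called in all 20 alternatives run. Within AXL WT hypoxia, Pla2g4a, Ptgs1 and Ptgs2 were each lowest in replicate 1 and highest in replicate 2. How many of all genes follow this order was not counted, here or for the genes compared with Ptgs2 by replicate below.

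Ptges, Ptges2 and Ptges3 encode the terminal synthases: the inducible microsomal enzyme that is coupled to COX-2, another membrane-associated enzyme, and a cytosolic protein also known as the Hsp90 co-chaperone p23. Ptges (ENSMUSG00000050737) was at 3.64, 3.79 and 3.83 CPM in AXL KO hypoxia, against 20.2, 4.34 and 8.81 CPM in AXL WT hypoxia. It was at 2.70, 2.93 and 3.29 CPM in AXL KO normoxia, against 4.34, 4.50 and 4.16 CPM in AXL WT normoxia. In AXL WT hypoxia the order of the replicates was the reverse of that of Ptgs2, and the replicate with the most Ptgs2 held a Ptges level within the range of AXL WT normoxia.

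Ptges fell by 0.54 ± 0.12 on the log2 scale in AXL KO normoxia against AXL WT normoxia (edgeR, adjusted p = 0.00109), a call lost when all 12 libraries shared 1 spread (adjusted p = 0.265). In hypoxia its log2 fold change for AXL KO against AXL WT was -1.57 ± 0.52 (adjusted p = 0.0413), past the threshold in 8 of 15 alternatives. That value was -0.81 (adjusted p = 0.0502) without AXL WT hypoxia replicate 1. For hypoxia against normoxia, Ptges had log2 fold changes of 0.33 ± 0.13 in AXL KO (adjusted p = 0.0395, past the threshold in 6 of 14 alternatives) and 1.36 ± 0.51 in AXL WT (adjusted p = 0.0642), and the interaction did not pass (-1.03 ± 0.57, adjusted p = 0.198). Without AXL WT hypoxia replicate 1 the AXL WT response and the interaction were 0.61 and -0.27, neither past the threshold, and without replicate 2 they were 1.76 (adjusted p = 0.0101) and -1.41 (adjusted p = 0.013). Ptges stayed at or below 20.2 CPM in every library.

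Ptges2 (ENSMUSG00000026820) was at 22.6, 23.5 and 23.3 CPM in AXL KO hypoxia, against 19.8, 17.0 and 17.8 CPM in AXL WT hypoxia. In normoxia it was at 66.8, 67.2 and 51.4 CPM in AXL KO, against 30.2, 32.8 and 33.1 CPM in AXL WT. Every hypoxia library lay below every normoxia library. In hypoxia Ptges2 fell by 1.42 ± 0.10 on the log2 scale in AXL KO (edgeR, adjusted p = 3.53e-08) and fell by 0.81 ± 0.14 in AXL WT (adjusted p = 0.00364). It was higher in AXL KO in normoxia by 0.95 ± 0.10 (adjusted p = 1.31e-06), while in hypoxia the log2 fold change of 0.35 ± 0.14 did not pass (adjusted p = 0.0836).

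Ptges3 (ENSMUSG00000071072) varied least, between 62.9 and 79.9 CPM over all 12 libraries. Its log2 fold change for hypoxia against normoxia in AXL KO was 0.19 ± 0.06 (edgeR, adjusted p = 0.0148), but this became -0.01 (adjusted p = 0.874) when libraries were scaled by total counts alone. The other contrasts of Ptges3 had adjusted p from 0.427 to 0.79. Per length, Ptges3 exceeded Ptges 5.63-fold to 43.7-fold in TPM, with the lowest ratio in AXL WT hypoxia replicate 1.

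**Figure D3:**
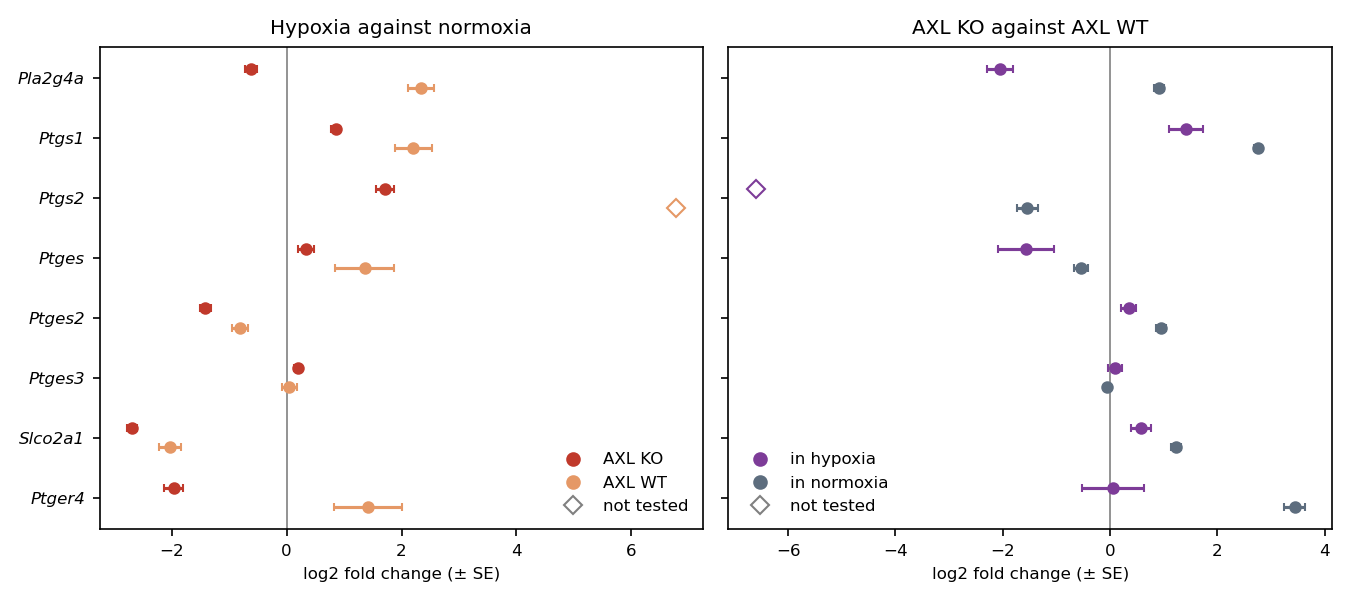
Log2 fold changes of the 8 members that passed the filter on low counts, with standard errors, for hypoxia against normoxia (left: AXL KO above AXL WT) and for AXL KO against AXL WT (right: in hypoxia above in normoxia); open diamonds are the untested values of Ptgs2. Pla2g4a lies at -0.62 in AXL KO and 2.34 in AXL WT on the left, Slco2a1 lies at -2.69 and -2.04, and on the right Ptgs1 lies above 0 in both conditions.

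Slco2a1 (ENSMUSG00000032548, chromosome 9, 102988712 to 103096002) encodes the prostaglandin uptake transporter. It was at 70.5, 86.3 and 79.7 CPM in AXL KO hypoxia, against 66.1, 44.2 and 47.9 CPM in AXL WT hypoxia. In normoxia it was at 552, 507 and 465 CPM in AXL KO, against 208, 197 and 244 CPM in AXL WT. Hypoxia and normoxia were fully separated in both genotypes. In hypoxia Slco2a1 fell by 2.69 ± 0.09 on the log2 scale in AXL KO (edgeR, adjusted p = 7.74e-11) and fell by 2.04 ± 0.19 in AXL WT (adjusted p = 0.000352). AXL KO was higher in normoxia by 1.23 ± 0.09 (adjusted p = 1.71e-08). In hypoxia the difference was 0.58 ± 0.19 (adjusted p = 0.0365), and it passed in only 6 of 15 alternatives.

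Hpgd (ENSMUSG00000031613), the main prostaglandin-inactivating enzyme, was barely read. It had 3, 3 and 1 counts in AXL KO hypoxia, against 1, 111 and 8 counts in AXL WT hypoxia, and 0 counts in all 6 normoxia libraries. Nearly all of its reads thus came from replicate 2 of AXL WT hypoxia, the library with the most Ptgs2, and Hpgd did not pass the filter on low counts. Summed over groups, the ratio of AXL KO to AXL WT in hypoxia was 0.0539 (95% counting interval 0.0212 to 0.114), an interval that covers counting error only, and without replicate 2 the AXL WT sum was 9 counts. A count of 0 over a normoxia group allows up to 0.0174 CPM in AXL KO and 0.0213 CPM in AXL WT.

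The EP4 receptor gene Ptger4 (ENSMUSG00000039942) was at 2.55, 2.49 and 2.55 CPM in AXL KO hypoxia, against 1.22, 4.92 and 1.18 CPM in AXL WT hypoxia. In normoxia it was at 7.77, 9.64 and 12.3 CPM in AXL KO, against 0.846, 0.837 and 1.05 CPM in AXL WT. AXL KO normoxia stood above all other groups, and AXL WT hypoxia replicate 2 above the other libraries of its group. Ptger4 was higher in AXL KO in normoxia by 3.44 ± 0.19 on the log2 scale, 10.9-fold in mean CPM (edgeR, adjusted p = 1.77e-09). In AXL KO cells it fell by 1.97 ± 0.16 in hypoxia (adjusted p = 1.79e-07), while in AXL WT the log2 fold change was 1.42 ± 0.60 (adjusted p = 0.0896) and the interaction was -3.38 ± 0.65 (adjusted p = 0.003). In hypoxia AXL KO against AXL WT gave 0.05 ± 0.57 (adjusted p = 0.945), which became 1.07 (adjusted p = 0.0132) without AXL WT hypoxia replicate 2. Without that library the response in AXL WT was 0.41 (adjusted p = 0.255) and the interaction -2.37 (adjusted p = 0.000142).

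The EP2 receptor gene Ptger2 (ENSMUSG00000037759) had 1 count in 1 AXL KO hypoxia library, 1 count in 1 AXL WT normoxia library and 0 counts in the other 10 libraries. No gene on the same strand overlaps either receptor gene, and counting used strand. On the opposite strand, Ptger2 overlaps Gm17173, which reached 1541 counts in a library, and Ptger4 overlaps Ttc33, which reached 2088.

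Across contrasts, the members' counts of calls were close to the background in some and above it in others. For AXL KO against AXL WT in hypoxia, 4 of 7 tested members passed (2 higher, 2 lower), beside 48.6% of all genes (23.3% higher, 25.3% lower). In normoxia 7 of 8 passed (5 higher, 2 lower), beside 76.9% (38.2% higher, 38.7% lower). For hypoxia against normoxia, 8 of 8 passed in AXL KO (4 higher, 4 lower), beside 72.6% of all genes (34.9% higher, 37.6% lower). In AXL WT 4 of 7 passed (2 higher, 2 lower), beside 46.3% (22.5% higher, 23.9% lower). For the interaction 5 of 7 passed, all more negative in AXL KO, beside 15.3% of all genes called in that direction and 13.5% in the other. The median log2 interaction of the 7, without Ptgs2, was that of Ptges, -1.03, beside -0.03 over all genes tested. With so few members none of these shares is read as particular to the pathway.

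A wider list of eicosanoid genes, covering phospholipases and lipid supply, other prostanoid synthases, receptors, export and removal, and the lipoxygenase branch, had 59 genes in the files, of which 34 passed the filter. For AXL KO against AXL WT, 14 were higher and 10 lower in hypoxia (70.6% called, beside 48.6% of all genes), and 16 were higher and 14 lower in normoxia (88.2%, beside 76.9%). With library size alone, 8 of 19 called in hypoxia were higher, so the larger direction turned. For hypoxia against normoxia, 12 were higher and 13 lower in AXL KO (73.5%, beside 72.6%), and 6 were higher and 8 lower in AXL WT (41.2%, beside 46.3%). The median log2 fold changes over these 34 genes were 0.28, 0.13, -0.05 and 0.08 in the same order of contrasts, beside -0.04, -0.03, -0.03 and -0.02 over all genes tested. With library size alone they were 0.12, -0.13, -0.25 and -0.19, so the signs of 2 of them turned. For the interaction 7 were more positive and 14 more negative in AXL KO (61.8%, beside 28.8%), with a median of -0.29.

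Among the prostanoid synthases, Akr1b3, an aldose reductase that can also make prostaglandin F2α, was, like Ptgs2, highest in AXL WT hypoxia. It was at 101, 88.8 and 96.3 CPM in AXL KO hypoxia, against 1077, 5208 and 4240 CPM in AXL WT hypoxia, and at 14.0, 16.5 and 12.6 CPM in AXL KO normoxia, against 63.3, 54.1 and 74.2 CPM in AXL WT normoxia. As for Ptgs2, replicate 1 was the lowest and replicate 2 the highest library of AXL WT hypoxia, and no library of that group overlapped another group. Akr1b3 rose in hypoxia by 2.73 ± 0.10 on the log2 scale in AXL KO (edgeR, adjusted p = 1.19e-10) and by 5.78 ± 0.61 in AXL WT (adjusted p = 0.000567), with an interaction of -3.05 ± 0.58 (adjusted p = 0.00263). In AXL KO against AXL WT it fell by 5.20 ± 0.59 in hypoxia (adjusted p = 0.00064) and fell by 2.16 ± 0.13 in normoxia (adjusted p = 6.3e-08).

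Akr1b8, a related aldo-keto reductase, averaged 9.02 ± 0.644 CPM in AXL KO hypoxia, against 369 ± 99.4 CPM in AXL WT hypoxia (SD, n = 3 each). Its normoxia means were 6.12 ± 0.474 CPM in AXL KO cells, against 108 ± 3.68 CPM in AXL WT cells. In AXL KO against AXL WT, Akr1b8 fell by 5.36 ± 0.24 on the log2 scale in hypoxia (edgeR, adjusted p = 1.48e-05) and fell by 4.14 ± 0.08 in normoxia (adjusted p = 9.06e-15). The carbonyl reductase gene Cbr2 showed the reverse, with 22.9 ± 3.00 CPM in AXL KO hypoxia against 0.422 ± 0.0695 CPM in AXL WT hypoxia, a log2 fold change of 5.76 ± 0.25 (adjusted p = 1.07e-05). In normoxia Cbr2 was higher in AXL KO by 6.76 ± 0.12 (adjusted p = 1.09e-14). Pla2g5, a secreted phospholipase A2, had 4 counts over AXL KO hypoxia against 216 over AXL WT hypoxia, and 5 over AXL KO normoxia against 1059 over AXL WT normoxia. It was called lower in AXL KO in both.

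Export and removal genes moved in several directions. Abcc4, which encodes the exporter MRP4 that carries prostaglandin E2 out of cells, was at 2.81, 2.62 and 2.35 CPM in AXL KO hypoxia, against 37.9, 58.5 and 42.9 CPM in AXL WT hypoxia. In normoxia it was at 48.0, 23.6 and 23.2 CPM in AXL KO, against 40.7, 38.9 and 43.1 CPM in AXL WT. The groups were apart in hypoxia and overlapped in normoxia. Under hypoxia Abcc4 fell by 3.61 ± 0.31 on the log2 scale in AXL KO (edgeR, adjusted p = 3.88e-06) and had a log2 fold change of 0.18 ± 0.18 in AXL WT (adjusted p = 0.443), with an interaction of -3.79 ± 0.38 (adjusted p = 4.45e-05). Slco3a1, another prostaglandin transporter gene, rose in hypoxia by 0.52 ± 0.06 in AXL KO (adjusted p = 6.59e-06) and by 1.84 ± 0.12 in AXL WT (adjusted p = 0.000101). Ptgr2, a prostaglandin reductase gene, fell by 1.28 ± 0.07 in AXL KO hypoxia (adjusted p = 5.21e-09), averaging 26.8 ± 2.06 CPM, against 65.1 ± 0.496 CPM in AXL KO normoxia. Pla2g2e, another secreted phospholipase A2, had 1, 3 and 0 counts in AXL KO hypoxia, against 242, 243 and 218 counts in AXL KO normoxia. In AXL WT it had 3, 0 and 3 counts in hypoxia, against 34, 31 and 25 counts in normoxia, and it was called lower in hypoxia in both genotypes.

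**Figure D4:**
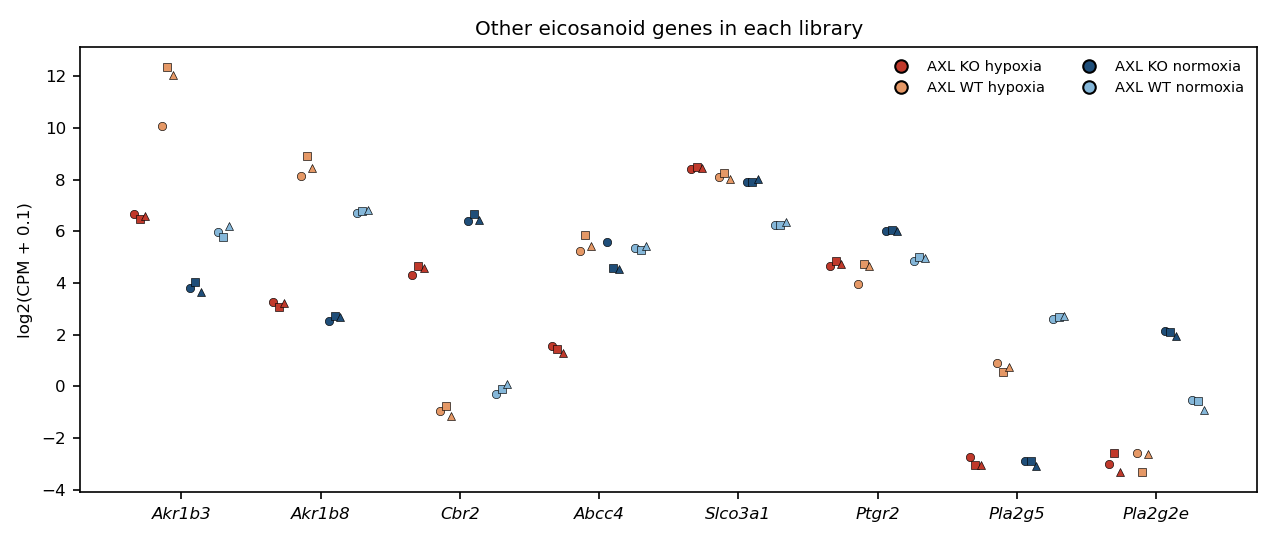
Levels of 8 other eicosanoid genes in each library as log2(CPM + 0.1); colours are the 4 groups and circles, squares and triangles are replicates 1, 2 and 3. Akr1b3 is highest in AXL WT hypoxia, where its libraries hold 1077, 5208 and 4240 CPM; Akr1b8 and Pla2g5 lie lower and Cbr2 higher in AXL KO at both oxygen levels; Abcc4 is lowest in AXL KO hypoxia.

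Of 16 textbook regulators of Ptgs2 transcription or mRNA decay, all passed the filter. For AXL KO against AXL WT, 4 were higher and 4 lower in hypoxia (8 of 16 called, beside 48.6% of all genes), and 9 were higher and 6 lower in normoxia (93.8%, beside 76.9%). For hypoxia against normoxia, 8 were higher and 6 lower in AXL KO (87.5%, beside 72.6%), and 6 were higher and 2 lower in AXL WT (8 of 16, beside 46.3%). Their calls went both ways in every contrast, and for the interaction 3 were more positive and 6 more negative in AXL KO (56.2%, beside 28.8%).

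Nfkb1, which encodes the NF-kappaB subunit p105/p50, was at 123, 119 and 118 CPM in AXL KO hypoxia, against 212, 603.5 and 289.8 CPM in AXL WT hypoxia, a log2 fold change of -1.62 ± 0.37 (edgeR, adjusted p = 0.0101). Elavl1, which encodes the mRNA-stabilising protein HuR, fell by 0.79 ± 0.14 in AXL KO hypoxia against AXL WT hypoxia (adjusted p = 0.00343). The C/EBP genes ran the other way: Cebpd was at 40.3, 43.0 and 45.5 CPM in AXL KO hypoxia, against 9.54, 1.45 and 2.20 CPM in AXL WT hypoxia (3.29 ± 0.68, adjusted p = 0.00741). In normoxia Cebpb was higher in AXL KO by 1.08 ± 0.06 (adjusted p = 1.28e-09). Epas1, which encodes HIF-2α, averaged 34.6 ± 0.855 CPM in AXL KO hypoxia, against 2.99 ± 0.417 CPM in AXL WT hypoxia (SD, n = 3 each), a log2 fold change of 3.54 ± 0.18 (adjusted p = 2.09e-05).

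Hif1a, which encodes HIF-1α, rose in hypoxia by 0.86 ± 0.07 on the log2 scale in AXL KO (edgeR, adjusted p = 7.8e-08) and by 2.34 ± 0.21 in AXL WT (adjusted p = 0.000323). Jun, an AP-1 subunit gene, rose by 1.63 ± 0.09 in AXL KO (adjusted p = 4.25e-09) and by 2.86 ± 0.16 in AXL WT (adjusted p = 7.3e-05). Fos, its partner, rose by 1.33 ± 0.10 in AXL KO (adjusted p = 5.5e-08) and by 2.93 ± 0.37 in AXL WT (adjusted p = 0.00117). Fosl1, another AP-1 subunit gene, fell by 1.19 ± 0.10 in AXL KO (adjusted p = 4.11e-07) and fell by 2.08 ± 0.24 in AXL WT (adjusted p = 0.000777). Zfp36 and Zfp36l1 encode proteins that destabilise AU-rich mRNAs such as that of Ptgs2. In normoxia both were higher in AXL KO, Zfp36 by 1.64 ± 0.09 (adjusted p = 4.72e-10) and Zfp36l1 by 1.51 ± 0.07 (adjusted p = 1.29e-10). Both also rose in hypoxia in both genotypes. Zfp36 rose by 0.54 ± 0.08 in AXL KO (adjusted p = 6.5e-05) and by 1.75 ± 0.28 in AXL WT (adjusted p = 0.00271). Zfp36l1 rose by 0.83 ± 0.07 in AXL KO (adjusted p = 2.08e-07) and by 1.93 ± 0.12 in AXL WT (adjusted p = 9.88e-05). For AXL KO against AXL WT in hypoxia the values were 0.43 ± 0.27 for Zfp36 (adjusted p = 0.219) and 0.42 ± 0.11 for Zfp36l1 (adjusted p = 0.0212).

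The protein-coding genes with profiles most like that of Ptgs2 were found by Pearson's r of log2(CPM + 1) over the 12 libraries, among 8969 genes with a mean of at least 10 CPM. They were Fhl2 (r = 0.990), Atg9a (0.990), Sprr1a (0.989), Slc23a2 (0.988) and Ecsit (0.987). Over the 9 libraries outside AXL WT hypoxia they were Adpgk (r = 0.995), 2310057M21Rik (0.987), Nsun5 (0.987), Ankrd54 (0.984) and Nae1 (0.982), and 0 of these 5 were among the first 5. The libraries fall into groups that share their culture condition, so these values describe likeness only, and the ranking over 12 libraries rests on the AXL WT hypoxia group. Sprr1a reached the mean of 10 CPM only through that group, averaging 134 CPM there and at most 0.85 CPM in the others.

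Markers of other cells that make prostaglandins were low, with exceptions. Of 7 leukocyte markers, 5 (Ptprc, Cd3e, Adgre1, Itgam and Lyz2) stayed under 1 CPM in every library, and Ptprc, the common leukocyte antigen, did not exceed 0.0873 CPM. The summed level of the 7 was 49.0 to 55.6 CPM in AXL KO hypoxia, 15.0 to 152 CPM in AXL WT hypoxia, 59.6 to 85.3 CPM in AXL KO normoxia and 11.1 to 12.7 CPM in AXL WT normoxia. Csf1r, a macrophage receptor gene, was at 5.41, 145 and 41.1 CPM in replicates 1, 2 and 3 of AXL WT hypoxia, the same order as Ptgs2, and at most 0.218 CPM in the other groups. Cd68, a lysosomal protein gene of macrophages, made up nearly all of the sum elsewhere, at 48.9 to 55.3 CPM in AXL KO hypoxia, 59.5 to 85.2 CPM in AXL KO normoxia and 10.6 to 12.2 CPM in AXL WT normoxia. In AXL WT hypoxia it was at 9.28, 5.77 and 6.09 CPM, lowest in the replicate with the most Ptgs2. The part of these markers in the Ptgs2 levels was not tested.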

How the data were processed

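The 12 RNA libraries of MMTV-NIC cells were grouped by their titles. In 6 samples the genotype tag contradicts the title and was not used. Per the submitters' processing notes, the authors used FastQC 0.11.5, STAR 2.5.1b, GRCm38, featureCounts 1.4.6 and DESeq2 1.12.3. The deposited values are counts of fragments per gene: per the file headers they come from featureCounts 1.6.0 with Ensembl release 93, both ends mapped, chimeric fragments left out and strand setting 2. Symbols were matched by Ensembl gene ID for 54079 of 54232 genes.

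Counts were tested with edgeR 4.0.16 (R 4.3.3) by the quasi-likelihood method with robust dispersion. The filter filterByExpr (16767 genes kept, 37465 removed) and the TMM factors came from all 12 libraries. Each contrast of 2 groups was fitted on its own 6 libraries (4 residual degrees of freedom), because AXL WT hypoxia spreads more than the other groups, and the interaction on 12 (8 degrees of freedom). Calls are at a Benjamini-Hochberg adjusted p under 0.05 over all genes kept. CPM use TMM scaling, TPM use the deposited gene lengths, and log2 fold changes carry standard errors, derived from the F statistic. Floors are 3 counts over a group's total gene counts, without TMM scaling, and intervals are at 95%.

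The members, lists and tests were chosen with earlier results of these data known. Always named were Axl and the 10 members. From the wider eicosanoid list and the list of Ptgs2 regulators, up to 4 genes each per contrast of 2 groups were named, those with the smallest adjusted p among genes called and at 1 CPM or more; a named gene could be followed elsewhere. Erbb2, Krt8, Krt18, Krt19, Epcam, Cdh1, Cldn4, Cd24a, Ptprc, Csf1r and Cd68 were among those named from the cell type markers, after their values were seen. Scaling was changed to RLE factors or to library size alone, and the filter was dropped or set to 5 CPM in at least 3 libraries. DESeq2 1.42.0 and limma-voom (limma 3.58.1) with a quality weight per group replaced edgeR. Other alternatives were a replicate block, 1 fit of all 12 libraries, leaving out each library, and leaving out replicates 2 and 3 of AXL WT hypoxia together. The fits were also run on simulated counts. These had the same spread for all genes of a group and few changed genes, unlike the data, so they give no error rate for these results. Tables and figures used Python 3.11.15, pandas 2.3.3, scipy 1.17.1 and matplotlib 3.10.9. Promoter windows are RefSeq's (GRCm38.p6). Protein sequences were not used here, and 1 listed marker is not reported here.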

Additional observations from a re-analysis of the deposited data

Results flagged for a closer look

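The hypoxia response differed between the genotypes, by the edgeR interaction test over all 12 libraries, for 5 of the 7 members tested, all in the negative direction, beside 28.8% of all genes called in either direction and 15.3% in that one. The interaction is the log2 response in AXL KO minus that in AXL WT. It was -3.38 for Ptger4, -2.96 for Pla2g4a and -1.35 for Ptgs1, and each of these calls held in all 20 alternatives run. For Slco2a1 it was -0.65 (adjusted p = 0.0381), called in 11 of 20 alternatives, and for Ptges2 it was -0.60 (adjusted p = 0.0194), called in 15 of 20. The spread of AXL WT hypoxia exceeds that of the other 3 groups pooled with it in this test. With limma-voom, which gave each group its own quality weight, Ptger4, Pla2g4a and Ptgs1 kept their calls, and Slco2a1 and Ptges2 lost theirs. The part of that spread in the calls was not otherwise tested.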

How the results depend on the processing

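Ptgs1 and Pla2g4a kept their calls under every alternative run in all 5 contrasts. With library size alone, the log2 fold change of Ptges3 changed sign in 3 contrasts (-0.0756 for AXL KO against AXL WT in hypoxia, -0.0137 for hypoxia against normoxia in AXL KO and -0.249 in AXL WT), as did that of Ptger4 for AXL KO against AXL WT in hypoxia (-0.0743, and -0.0349 with the strict filter); none of these reversed values passed the threshold, but Ptges3 then passed it for AXL KO against AXL WT in normoxia (-0.31, adjusted p = 0.000501). With AXL WT hypoxia libraries 2 and 3 left out, Ptges3 was at -0.0726 for hypoxia against normoxia in AXL WT, 11971 genes were called there against 7770, and the interaction of Ptgs2 was -4.16 against -5.06; the lone library is assumed to vary like the other groups.

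Leaving out 1 library at a time moved Ptger4 between -0.28 and 1.07 for AXL KO against AXL WT in hypoxia, and Ptges3 between -0.0758 and 0.0144 in normoxia and between -0.0369 and 0.133 for hypoxia against normoxia in AXL WT. Genes called ran from 5419 (without AXL KO hypoxia replicate 3) to 10639 for AXL KO against AXL WT in hypoxia, from 4851 (without AXL WT normoxia replicate 3) to 10056 for hypoxia against normoxia in AXL WT, and from 3618 to 8342 (without AXL WT hypoxia replicate 1) for the interaction. Members called ran from 2 to 4 for AXL KO against AXL WT in hypoxia and from 3 to 6 for the interaction.

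Libraries with the same replicate number had correlations from -0.06 to 0.12. The same-number library was the best match in some cases and not in others, so this check does not settle whether the numbers pair libraries. With the replicate number as a block, 2 members were called for AXL KO against AXL WT in hypoxia, where Ptges (adjusted p = 0.0556) and Slco2a1 (adjusted p = 0.0568) missed the threshold, and Slco2a1 missed it for the interaction (adjusted p = 0.0611); 7610 genes were called in that hypoxia contrast and 12804 in normoxia. Members called for the interaction were 3 with library size alone and 3 with limma-voom. The 5 genes most like Ptgs2 shared 0 with the 5 found over the 9 libraries outside AXL WT hypoxia. Library size alone moved the median over all genes (log2) to -0.21, -0.28, -0.23, -0.32 and 0.06 in the 5 contrasts, and the share of calls that were higher to 38.1%, 37.0%, 37.5%, 32.5% and 55.1%, against 47.9%, 49.6%, 48.2%, 48.5% and 46.9%. The causes of these changes were not tested. Hpgd and Ptger2 are limited by their few counts.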

Other observations

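Other cell type markers gave these summed CPM. Mast cell markers were at 0.897 to 1.19 in AXL KO hypoxia, 0 to 0.0221 in AXL WT hypoxia, 0.379 to 0.679 in AXL KO normoxia and 0 to 0.0186 in AXL WT normoxia, with Cpa3, Mcpt4 and Tpsb2 at 0 counts in all 12 libraries and the rest from Kit. Platelet markers did not exceed 8.30 CPM in any library. Fibroblast markers were at 58.7 to 65.4 CPM in AXL KO hypoxia, 72.1 to 96.1 CPM in AXL WT hypoxia, 186 to 201 CPM in AXL KO normoxia and 66.1 to 72.6 CPM in AXL WT normoxia, with Lum, Fap and Thy1 under 1 CPM throughout. Endothelial markers were at 15.7 to 17.5 CPM in AXL KO hypoxia, 0.751 to 1.78 CPM in AXL WT hypoxia, 3.14 to 4.35 CPM in AXL KO normoxia and 0.354 to 0.617 CPM in AXL WT normoxia, of which Kdr alone exceeded 1 CPM. Epithelial markers were at 1668 to 1715 CPM in AXL KO hypoxia, 923 to 2241 CPM in AXL WT hypoxia, 1639 to 1868 CPM in AXL KO normoxia and 1838 to 2033 CPM in AXL WT normoxia. Most of these sums came from Krt8 and Krt18, whose ranges overlapped between the genotypes in hypoxia. Epcam, Cdh1 and Cldn4 were each highest in AXL WT hypoxia, with Epcam at 42.6 to 104 CPM there and at 7.21 to 12.5 CPM in AXL KO hypoxia. Mammary tumour markers were at 2046 to 2069 CPM in AXL KO hypoxia, 601 to 2888 CPM in AXL WT hypoxia, 836 to 998 CPM in AXL KO normoxia and 1354 to 1583 CPM in AXL WT normoxia. Of these, Cd24a was at 1356 to 1438 CPM in AXL KO hypoxia and at most 480 CPM in the other groups, while Erbb2 was highest in AXL WT hypoxia replicate 1.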
